A study of Drosophila melanogaster with 12 samples.

Results

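The genes described here are ovo, which encodes the transcription factor Shavenbaby (Svb), and 7 genes known from work on how Svb shapes cuticle hairs in the epidermis: Ubr3, f (forked), sn (singed), WASp, m (miniature), cyr (cypher) and mwh (multiple wing hairs). They were chosen by name, by an exact match of the symbol in the deposited count table, and all 8 were found among its 8802 genes. In sorted midgut cells that express either form of Svb, ovo counts were above control by a log2 fold change over 5. Transgene reads are counted under ovo and cannot be told apart from those of its locus, so a rise was set by the design. None of the other 7 genes was called against control in the edgeR fit of all 12 libraries without a block. The hair-patterning gene mwh was higher in every library labelled svb RNAi than in any control library, and the actin-bundling gene sn was lower in every SvbACT and SvbREP library than in any control library. Such separation from control was common, at 37.6% of all genes for svb RNAi, 19.5% for SvbACT and 20.8% for SvbREP. Whether the mwh difference and the sn difference in SvbACT passed the threshold depended on the treatment of the library number and the scaling. For mwh it also depended on which libraries entered the fit. The sn difference in SvbREP was called in 0 of 19 alternatives.

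RNA was sequenced from sorted GFP-positive cells of virgin Drosophila melanogaster females, taken from midgut regions R3, R4 and R5 and named early enterocytes in the labels. There were 4 genotypes with 3 libraries each, 12 libraries in all, and the replicates were taken on different calendar days. Every fly carried MyoIA-Gal4, a driver active in enterocytes, with UAS-GFP and the temperature-sensitive Gal4 inhibitor tubGal80TS. The controls came from a cross to the wild-type stock Canton-S. The other crosses brought in UAS-SvbRNAi, UAS-SvbACT::GFP (the constitutive activator form) or UAS-Svb3Kmut::GFP, the constitutive repressor form that is named SvbREP. All flies spent 3 days at room temperature and 6 days at 29 °C, where the transgenes are active, and were dissected at 9 days of age. Guts of more than 20 females were pooled per batch of cells, and the parental stock differs between genotypes, so stock and transgene cannot be told apart. Cells in which MyoIA-Gal4 is silent were not targeted, and in sorted bulk samples fewer cells of a type and less RNA per cell cannot be told apart.

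In embryonic epidermis, Svb decides which cells build actin-rich hairs, the trichomes. The protein is made as a long repressor, and small peptides encoded by the gene tarsal-less (also called pri) let the ubiquitin ligase Ubr3 bind it, so that the proteasome trims it to a shorter activator. The activator switches on genes of the actin skeleton (f, sn, WASp, mwh) and of the apical extracellular matrix (m, cyr). In the adult midgut, Svb is known to act in stem cells as the repressor or the activator according to this processing, with roles in their survival and in enterocyte differentiation.

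Library totals ran from 3209182 to 8881488 counts, so a floor of 3 counts corresponded to 0.338 to 0.935 CPM (counts per 1000000 counts of a library). The floor covers counting error only. The p-values measure the spread between these 12 libraries. Among markers of enterocytes, 10 of 11 were in the table, and Myo31DF, the gene of the driver, ranged from 404 to 631 CPM. The markers esg and Dl of intestinal progenitors were also present in every library, at 711 to 1660 CPM and 154 to 558 CPM, so the cells were not free of progenitor transcripts. In control, 6 of 7 progenitor markers summed to 5289 to 5655 CPM, above the 639.5 to 1051 CPM of the 10 enterocyte markers. The progenitor sum was the higher one in every genotype. The 2 lists hold different genes, so their sums do not give shares of cells. By median CPM over the libraries, the enterocyte markers ran from 3.88 for Npc2d to 466 for Myo31DF. Summed over 2 of 6 tracheal markers in the table the level was 0.596 to 4.07 CPM, and over 3 of 6 hemocyte markers it was 37.5 to 85.2 CPM. Sums for the other cell types are given further below, and whether they moved with any gene of the set was not tested.

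Of the 8 genes 6 lie on the X chromosome, where 17% of the positioned genes of the table lie. On dm6 the coordinates are chrX:5048273-5070929 for ovo (plus strand), chrX:7935896-7953883 for Ubr3 (plus), chrX:7964024-7986601 for sn (plus), chrX:8121280-8135713 for cyr (minus), chrX:11754273-11769508 for m (plus) and chrX:17232942-17280964 for f (plus). WASp lies at chr3R:28824506-28832024 (minus) and mwh at chr3L:1200786-1232700 (plus). Ubr3 and sn lie close together, with 10140 bp from the end of Ubr3 to the start of sn. The strand setting of the read counting is not given in the sources used here, and exons of 5 of the genes overlap an exon of an antisense gene. The overlap was largest for sn, which shares 119 bp (3.39% of its exon length) with sws, and for ovo it was 25 bp (0.338%), shared with lncRNA:CR44833.

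In control cells the 8 genes spanned a wide range of levels per exon length. Ubr3 stood highest at 28.96 ± 3.41 CPM per kb of exon (mean ± SD, n = 3), and WASp followed at 16.5 ± 7.51. The lowest WASp library was above the highest library of every gene further down the order, and the Ubr3 and WASp libraries did not overlap. Next came cyr at 4.63 ± 0.924 and sn at 4.58 ± 0.995 CPM per kb, with overlapping libraries. The last 4 were mwh at 1.54 ± 0.406, f at 0.943 ± 0.428, ovo at 0.659 ± 0.754 and m at 0.545 ± 0.311 CPM per kb, and each overlapped its neighbour in this order. In CPM without regard to length, Ubr3 stood at percentile 91.0 of all genes of the table in control and m at percentile 9.01.

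**Figure D1:**
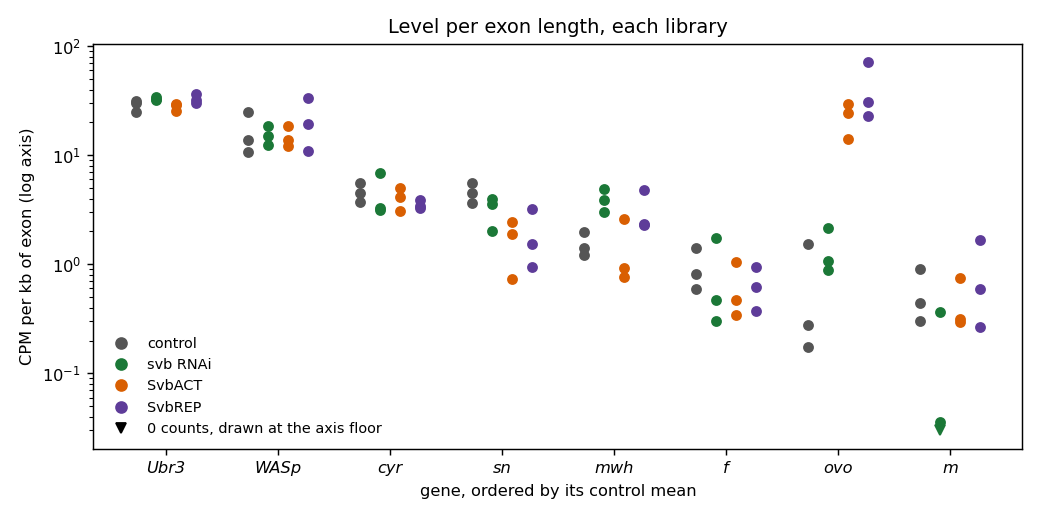
Level of each gene in CPM per kb of exon (log axis), with 1 point per library and genotypes side by side; genes are ordered by their control mean, and a triangle marks a library with 0 counts. The points of ovo in SvbACT and SvbREP (14.2 to 71.0) reach the range of Ubr3 and WASp, whereas m has 1 library at 0 counts.

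The ovo transcript was examined first, because ovo is the gene targeted by the RNAi and carried by the transgenes. Raw ovo counts were 63, 11 and 5 in control libraries 1 to 3 and 78, 65 and 21 in the svb RNAi-labelled libraries. Scaled to library totals, these were 11.3, 2.06 and 1.28 CPM in control and 16.1, 7.91 and 6.544 CPM in the svb RNAi-labelled libraries. The groups overlapped, and the lowest 2 values of the 12 were control libraries. The log2 fold change was 1.00 (SE 0.68, 95% interval -0.46 to 2.46, edgeR quasi-likelihood adjusted p = 0.344). A decrease of ovo was thus not measured in the svb RNAi-labelled libraries, although the interval includes small ones. With 11 and 5 counts in control libraries 2 and 3, there was little room to measure one. Whether reads of the UAS-SvbRNAi transgene were counted under ovo was not tested, and the label is kept here as a label. The authors' deposited table also did not call ovo between these libraries and control.

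In each same-numbered pair, ovo was higher in the library labelled svb RNAi than in control, by log2 ratios of 0.50, 1.78 and 2.08 (CPM with a prior count of 2). With the library number as a block, ovo was called higher, at a log2 fold change of 1.14 (95% interval 0.38 to 1.90, edgeR adjusted p = 0.0322). That call was lost when the blocked fit was scaled by TMM (0.98, edgeR adjusted p = 0.0608). One control library, number 1, carried most of the control signal, and without it the log2 fold change without a block was 2.56 (edgeR adjusted p = 0.0632).

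Both Svb transgenes raised the ovo count far above control. SvbACT libraries held 217, 182 and 105 CPM (counts 1604, 1612 and 493), with a mean of 168 ± 57.0 CPM (SD, n = 3). SvbREP libraries held 525, 227 and 170 CPM (counts 4019, 1223 and 570), with a mean of 307 ± 191 CPM, against 4.88 ± 5.58 CPM in control. No library of either genotype overlapped control or the svb RNAi-labelled libraries. The fitted change against control was 32.8-fold in SvbACT (log2 5.03, SE 0.67, edgeR adjusted p = 0.00266) and 60.1-fold in SvbREP (log2 5.91, SE 0.69, edgeR adjusted p = 0.00145), the controls being shared. Without control library 1 these log2 fold changes were 6.60 and 7.47. Among all genes of the table, ovo moved from percentile 21.2 of the CPM values in control to percentile 86.6 in SvbACT and 92.3 in SvbREP.

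Between the forms, ovo was lower in SvbACT than in SvbREP by a log2 fold change of -0.87 with a 95% interval of -2.03 to 0.28 (edgeR adjusted p = 1.00, unadjusted p = 0.126), and the libraries overlapped. The svb RNAi-labelled libraries were lower than SvbACT and SvbREP, with log2 fold changes of -4.03 and -4.91 (edgeR adjusted p = 0.00613 and 0.00125). Reads from a transgene and from the ovo locus are counted under the same gene and cannot be told apart in these counts, and neither can the svb and germline isoforms of ovo. Of 10 germline markers 5 were in the table, and their summed level was 24.5 to 44.7 CPM in control, 27.1 to 34.5 in the svb RNAi-labelled libraries, 73.7 to 106 in SvbACT and 22.8 to 37.4 in SvbREP. In that list piwi, which also acts in somatic cells and is named after its values were seen, ranged from 14.0 to 95.5 CPM. It was the 1 marker called in SvbACT against control with TMM, DESeq2 or the block. The edgeR fit with library totals and no block also called 1 germline marker there. The other 4 markers stayed at or under 8.34 CPM in every library, among them nos at 0 to 1.35 CPM. The part of these markers in the ovo values was not tested.

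**Figure D2:**
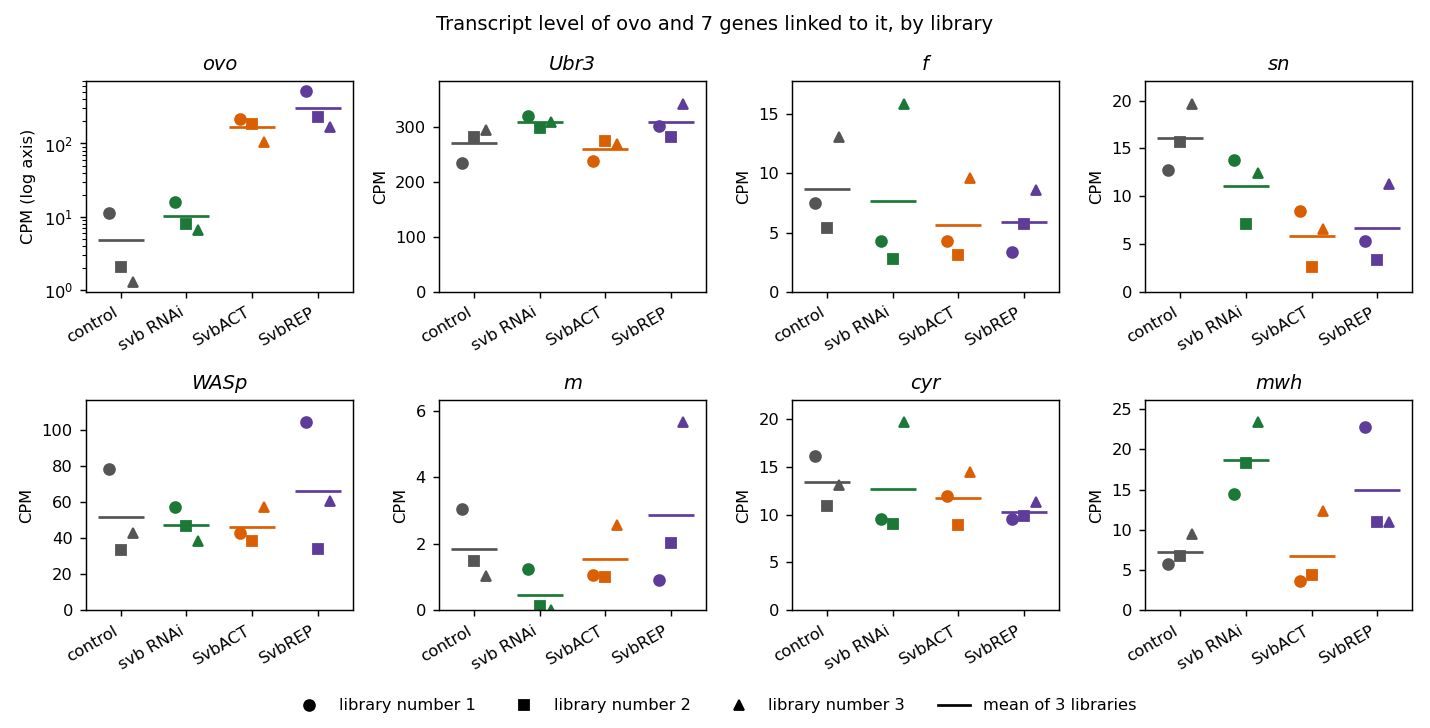
CPM of each gene in the 12 libraries, by genotype; symbols give the library number, horizontal lines the mean of 3 libraries, and the axis is linear from 0 except for ovo, where it is a log axis. Only the ovo panel separates SvbACT (105 to 217 CPM) and SvbREP (170 to 525 CPM) from both other genotypes; mwh in the svb RNAi-labelled libraries (14.4 to 23.4 CPM) lies above all controls (5.74 to 9.46 CPM).

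Across the 6 comparisons the 8 genes were read against the calls over all 8296 genes that passed the count filter, which all 8 did. At an adjusted p under 0.05 in edgeR, 0 of 8 were called between the svb RNAi-labelled libraries and control, where 13.9% of all genes were called, and DESeq2 also called 0 of 8; 2527 of all genes and 1 of the 8 (mwh) had an unadjusted p under 0.05. In SvbACT and in SvbREP against control 1 of 8 was called, where 1.42% and 1.21% of all genes were. That gene was ovo, whose rise was set by the design, and no other gene of the set was called. The same limit holds for each count below that includes ovo in SvbACT or SvbREP. Between SvbACT and SvbREP 0 of 8 were called, and 0.0964% of all genes were, and DESeq2 also called 0 of 8; 425 of all genes, and mwh among the 8, had an unadjusted p under 0.05. The svb RNAi-labelled libraries differed from SvbACT and from SvbREP in 1 of 8 genes, again ovo, against backgrounds of 1.81% and 2.06%. With the library number as a block, the genes called were ovo and mwh for svb RNAi against control (2 of 8, with 23.7% of all genes), ovo and sn for SvbACT against control (2 of 8, with 3.72%) and ovo for SvbREP against control (1 of 8, with 3.24%). They were 0 of 8 between SvbACT and SvbREP (0.301%), ovo and mwh for svb RNAi against SvbACT (2 of 8, with 5.93%) and ovo for svb RNAi against SvbREP (1 of 8, with 5.67%). The median log2 fold change of the 8 genes was -0.10, -0.18 and 0.28 in the 3 comparisons with control, in the order svb RNAi, SvbACT and SvbREP, and over all genes it was 0.16, 0.02 and 0.04.

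Genes whose groups did not overlap were counted in the same way. For the svb RNAi-labelled libraries against control it was 2 of 8 (Ubr3 and mwh), with 37.6% of all genes. For SvbACT against control it was 2 of 8 (ovo and sn), with 19.5%, and for SvbREP against control 3 of 8 (ovo, sn and mwh), with 20.8%. Between SvbACT and SvbREP it was 1 of 8 (Ubr3), with 9.14%. The svb RNAi-labelled libraries were separate from SvbACT in 3 of 8 genes (ovo, Ubr3 and mwh, background 23.9%) and from SvbREP in 1 of 8 (ovo, background 22.9%). Scaling bears on the comparisons with the svb RNAi-labelled libraries: the median of all genes against control was 0.16 on the log2 scale with library totals and 0.01 with TMM, and 66.8% of calls were higher with the first and 44% with the second. Against SvbACT the median went from 0.18 to 0.02 and the share of higher calls from 35.3% to 18%, and against SvbREP from 0.15 to 0.01 and from 33.3% to 18.6%.

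**Figure D3:**
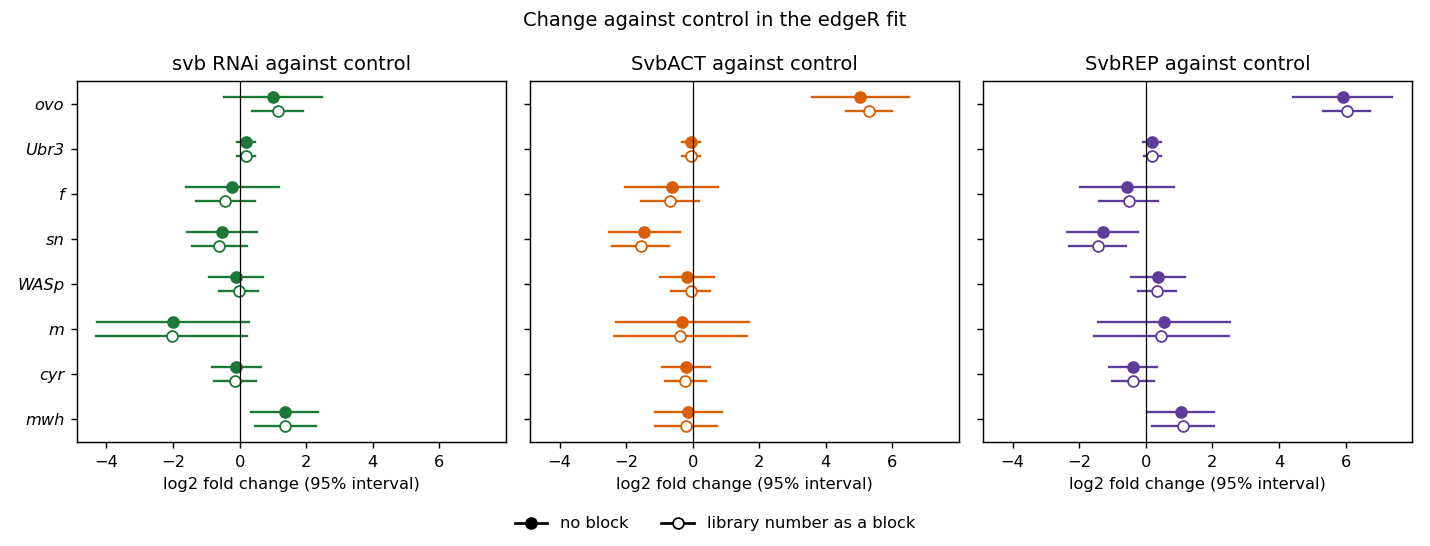
Log2 fold change of the 8 genes against control in the edgeR fit, with 95% intervals, without a block (filled) and with the library number as a block (open); the vertical line marks no change, and the 3 panels share the control libraries. Intervals of ovo in SvbACT and SvbREP lie far to the right of 0, and those of Ubr3 and cyr lie around 0 in all panels.

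Ubr3 encodes the ubiquitin ligase that binds Svb when the Pri peptides are present, and it was the most abundant of the 8 genes in control. Its counts ranged from 993 to 2450, the deepest coverage of the set. Levels were 235, 283 and 296 CPM in control, 321, 298 and 309.4 CPM in the svb RNAi-labelled libraries, 238, 274 and 270.5 CPM in SvbACT and 303, 282 and 343 CPM in SvbREP. All 3 svb RNAi-labelled libraries lay above the controls, although by little. The log2 fold change was 0.19 (SE 0.13, 95% interval -0.09 to 0.47, edgeR adjusted p = 0.343), close to the median of all genes in that comparison, and it was 0.04 with TMM. Against control it was -0.06 in SvbACT (-0.33 to 0.22) and 0.19 in SvbREP (-0.09 to 0.47), so every interval against control ended below a log2 change of 0.5 in either direction. SvbACT lay below SvbREP in every library, with a log2 fold change of -0.25 (95% interval -0.52 to 0.03, edgeR adjusted p = 1.00).

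Of 7 other genes listed for the processing of Svb and its trigger, Ubc6 and EcR were in the table. Ubc6, a ubiquitin-conjugating enzyme that works with Ubr3, had 111 ± 5.81 CPM in control, and EcR, the ecdysone receptor, had 372 ± 8.07 CPM. Neither was called in any of the 6 comparisons, and against control the log2 fold changes ran from -0.25 to -0.11 for Ubc6 and from -0.08 to 0.03 for EcR (edgeR adjusted p of at least 0.492). The 4 tarsal-less reading frames and usp were not analysed here.

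Among the actin genes, mwh, whose protein limits the number of actin hairs a wing cell forms, differed most from control in the svb RNAi-labelled libraries. Control libraries held 5.74, 6.73 and 9.46 CPM (counts 32, 36 and 37) and the svb RNAi-labelled libraries 14.4, 18.4 and 23.4 CPM (counts 70, 151 and 75). The groups did not overlap, and the means were 7.31 ± 1.93 and 18.7 ± 4.48 CPM (SD, n = 3). The 3 same-numbered pairs had log2 ratios of 1.28, 1.40 and 1.27. The fitted log2 fold change was 1.36 (SE 0.47, 95% interval 0.35 to 2.36), a 2.56-fold difference, and at an edgeR adjusted p of 0.0678 it was not called.

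With the library number as a block mwh passed the threshold (log2 1.37, edgeR adjusted p = 0.0323). It did not pass when the blocked fit was scaled by TMM (1.22, edgeR adjusted p = 0.0528). The authors' deposited table called mwh higher in this comparison, where it called 14% of all genes. The adjusted p of mwh ranged from 0.0259 to 0.202 over 19 alternatives, 3 of which called it: the block, a fit on only the genotypes compared, and the fit without SvbACT library 3 (edgeR adjusted p = 0.0341).

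In SvbREP, mwh had 22.7, 10.9 and 11.03 CPM, and every library lay above control. Its log2 fold change against control was 1.05 (SE 0.46, 95% interval 0.04 to 2.05, edgeR adjusted p = 0.369). In SvbACT it had 3.64, 4.39 and 12.4 CPM, which overlapped control, with a log2 fold change of -0.13 (SE 0.47, 95% interval -1.15 to 0.89). SvbACT was below SvbREP by -1.18 (SE 0.46, edgeR adjusted p = 0.874, unadjusted p = 0.0244). The svb RNAi-labelled libraries were above SvbACT by 1.49 (SE 0.46, edgeR adjusted p = 0.118), without overlap, and that difference was called with the block (1.58, edgeR adjusted p = 0.0444) and without SvbACT library 3 (2.21, edgeR adjusted p = 0.0412), but not with the block and TMM (1.43, edgeR adjusted p = 0.0570).

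Progenitor marker sums were lower in the svb RNAi-labelled libraries and in SvbREP than in control, without overlap. The summed level of 6 of 7 progenitor markers was 5289 to 5655 CPM in control, 3727 to 4452 in the svb RNAi-labelled libraries, 4325 to 6117 in SvbACT and 4397 to 4812 in SvbREP. The sums hide members that went the other way: of the 6 markers, edgeR called 3 lower and 1 higher in the svb RNAi-labelled libraries, and 0 lower and 1 higher in SvbREP. The sum of the enterocyte markers was 639.5 to 1051 CPM in control, 796 to 1926 in the svb RNAi-labelled libraries, 727 to 773.5 in SvbACT and 707 to 1137 in SvbREP. No marker named here for either type was at 0 in every library, and their part in the mwh difference was not tested.

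The gene sn encodes fascin, which ties actin filaments into bundles in bristles and trichomes. Its control libraries held 12.7, 15.7 and 19.7 CPM (counts 71, 84 and 77). SvbACT libraries held 8.503, 2.59 and 6.60 CPM (counts 63, 23 and 31) and SvbREP libraries 5.36, 3.33 and 11.3 CPM (counts 41, 18 and 38), all below the lowest control. The log2 fold change was -1.45 in SvbACT (SE 0.50, 95% interval -2.52 to -0.38, edgeR adjusted p = 0.211) and -1.30 in SvbREP (SE 0.50, 95% interval -2.37 to -0.22, edgeR adjusted p = 0.292), and neither passed the threshold. With the block sn was called in SvbACT (-1.56, edgeR adjusted p = 0.0455), whereas SvbREP stayed above the threshold (-1.44, edgeR adjusted p = 0.0707). With the block and TMM the SvbACT value had an edgeR adjusted p of 0.05005 and was not called. In the svb RNAi-labelled libraries sn had 13.8, 7.05 and 12.5 CPM, with a log2 fold change of -0.54 (SE 0.48, edgeR adjusted p = 0.488). Between SvbACT and SvbREP the difference was -0.15 with a 95% interval of -1.24 to 0.94.

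Marker sums of other cell types were also lower in SvbACT and SvbREP, without overlap with control for enteroendocrine cells, neurons and hindgut or tubule, and with overlap for visceral muscle. All 8 enteroendocrine markers were in the table, and their sum was 603 to 2092 CPM in control, 351 to 862 in the svb RNAi-labelled libraries, 168 to 331.5 in SvbACT and 149 to 219.6 in SvbREP. All 10 visceral muscle markers were in the table, with sums of 175 to 1040, 14.2 to 601, 67.2 to 241 and 34.4 to 286.5 CPM in the same order. Summed over 4 of 6 neuronal markers in the table the level was 187 to 267, 144 to 227, 119 to 170.3 and 109 to 137 CPM, and over 3 of 6 hindgut or tubule markers 15.2 to 30.4, 15.5 to 22.8, 4.90 to 7.96 and 3.58 to 14.6 CPM. The muscle myosin gene Mhc was detected in every library, from 2.89 to 264.5 CPM, and the lowest prospero (pros) level, the defining enteroendocrine marker, was 36.0 CPM. Counts of sws, the antisense neighbour that shares exon bases with sn, were 478 to 1115, against 18 to 84 for sn. The part of these markers and of sws in the sn difference was not tested.

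WASp, which activates branched actin nucleation by the Arp2/3 complex, was the second most abundant gene of the set in control. It had 78.1, 33.7 and 42.7 CPM in control, 57.3, 46.7 and 38.6 in the svb RNAi-labelled libraries, 42.9, 38.2 and 57.5 in SvbACT and 104, 34.1 and 60.5 in SvbREP. All groups overlapped, and the spread within control was as large as the differences between genotypes. The log2 fold changes against control were -0.11, -0.16 and 0.37, in the order svb RNAi, SvbACT and SvbREP, with 95% intervals of -0.93 to 0.70, -0.97 to 0.65 and -0.44 to 1.17 (edgeR adjusted p of 0.722 to 0.903).

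The gene f encodes forked, an actin-bundling protein of bristles and hairs. Its counts were 21 to 51 per library, and its levels were 7.54, 5.42 and 13.0 CPM in control, 4.33, 2.80 and 15.9 in the svb RNAi-labelled libraries, 4.32, 3.15 and 9.58 in SvbACT and 3.40, 5.74 and 8.64 in SvbREP. The groups overlapped in all comparisons, and the log2 fold changes against control were -0.22, -0.62 and -0.57 with intervals that reach from -2.02 to 1.18. A 4-fold decrease of f lies inside the interval for SvbACT.

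The matrix genes of the set, m and cyr, encode membrane proteins with a zona pellucida (ZP) domain that shape the cuticle over a hair. The counts of m were the lowest of the 8 genes, at 17, 8 and 4 in control, 6, 1 and 0 in the svb RNAi-labelled libraries, 8, 9 and 12 in SvbACT and 7, 11 and 19 in SvbREP. Its mean level was 1.86 ± 1.06 CPM in control and 0.453 ± 0.682 CPM in the svb RNAi-labelled libraries, where 2 of 3 libraries were under the floor of 3 counts. The log2 fold change there was -2.001 (SE 1.06, 95% interval -4.28 to 0.28, edgeR adjusted p = 0.222), lower in 3 of 3 same-numbered pairs, and the libraries overlapped. Against SvbREP the svb RNAi-labelled libraries were lower by -2.55 (SE 1.05, edgeR adjusted p = 0.231, unadjusted p = 0.0309). At this depth a change in m was not detectable beyond the spread between libraries.

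The gene cyr was not called in any comparison. It had 16.2, 10.9 and 13.0 CPM in control, 9.48, 9.00 and 19.6 in the svb RNAi-labelled libraries, 11.9, 8.90 and 14.5 in SvbACT and 9.54, 9.81 and 11.3 in SvbREP. The groups overlapped in every comparison. Its log2 fold changes against control were -0.09 (95% interval -0.82 to 0.63), -0.19 (-0.91 to 0.53) and -0.39 (-1.12 to 0.34), in the order svb RNAi, SvbACT and SvbREP.

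Other genes of the hair program were followed by lists chosen for their role. Of 8 further epidermal Svb targets 5 were in the table (dyl, dy, nyo, neo and zye, all encoding ZP proteins), and 0 of 5 passed the count filter. Their levels reached at most 6.39 CPM, for neo in 1 SvbACT library, and all 5 had at least 1 library listed at 0 counts. Of 5 other ZP genes pio was in the table, at 1.86 ± 0.407 CPM in control, and it was not called in any comparison.

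Of 24 genes of the actin apparatus 22 were tested, among them the Arp2/3 subunits, profilin (chic), cofilin (tsr) and the capping proteins. Between the svb RNAi-labelled libraries and control 1 rose and 1 fell, and the median log2 fold change of the 22 was 0.15, beside 0.16 over all genes. Fim, the actin-bundling protein fimbrin, fell from 2413, 2056 and 2317 CPM in control to 1110, 1311 and 1451 CPM, a log2 fold change of -0.81 (SE 0.17, edgeR adjusted p = 0.0100). The groups did not overlap, and Fim was called in every alternative run, in the comparison in which 13.9% of all genes were called.

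In SvbACT and in SvbREP against control 0 of 22 were called by edgeR, where 1.42% and 1.21% of all genes were, with 1 and 5 of the 22 at an unadjusted p under 0.05, beside 1104 and 1071 of the 8296 genes. The medians were 0.09 and -0.05, beside 0.02 and 0.04 over all genes. The formin gene dia had the smallest p of the list in SvbACT, with a log2 fold change of 0.61 (SE 0.15, edgeR adjusted p = 0.0597), and it was chosen for mention after its values were seen. With the library number as a block dia was called in SvbACT (1 of 22), where 3.72% of all genes were. DESeq2 also called it there (1 of 22, and 327 of the 8296 genes) and called 0 of 22 in SvbREP (275 of the 8296). In the svb RNAi-labelled libraries the block called 4 of 22, where 23.7% of all genes were called: 2 higher, among them Arpc1, and 2 lower (Fim and zip).

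The 8 genes did not share one pattern over the 12 libraries. Among the 28 pairs, the highest Pearson correlation of log2 CPM was 0.85 for f and cyr, and it was 0.86 after each genotype's mean was taken off. The lowest was -0.75 for ovo and sn, and that fell in size to -0.23 within genotypes. These values describe 12 libraries of 4 genotypes that differ in depth, and carry no test. The library number ran through several genes: ovo was highest in number 1 and lowest in number 3 in 4 of 4 genotypes, and f was highest in number 3 in 4 of 4. In 4 of 4 genotypes number 3 was the smallest library, number 1 had the highest sum of enterocyte markers, and number 1 had the lowest sum of visceral muscle markers. Their part in the levels of ovo and f was not tested.

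**Figure D4:**
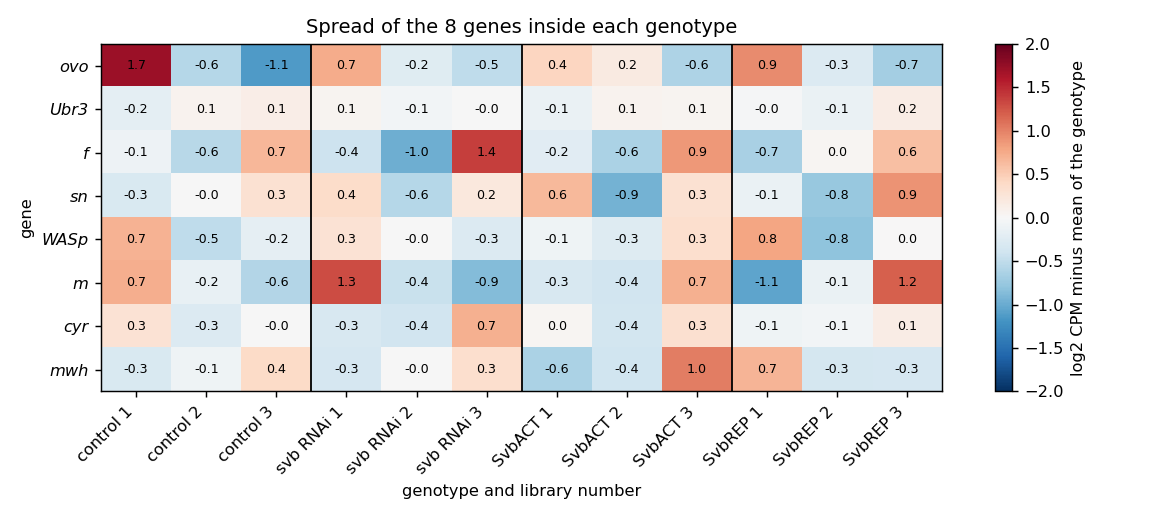
Log2 CPM of each gene in each library minus the mean of its genotype, in colour and as a printed value (log2 units). The row of ovo is positive in every library numbered 1 and negative in every library numbered 3, and the row of f is highest in every library numbered 3.

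The genes whose log2 CPM over the 12 libraries was most like that of ovo were klhl10 (Pearson r 0.96), CG34109 (0.94), DIP-alpha (0.94) and CG32641 (0.94). DIP-alpha, a cell-surface protein of the immunoglobulin family, had 40.1 ± 3.65 CPM in control, 57.6 ± 14.4 in the svb RNAi-labelled libraries, 155 ± 28.4 in SvbACT and 209 ± 55.5 in SvbREP. The other 3 were near the floor in control, with means of 0.0598, 0.239 and 0.179 CPM, and did not exceed 6.67 CPM in any library. For the other genes the closest were mtRNApol for Ubr3 (0.94), 7SLRNA:CR32864 for f (0.92), CR40679 for sn (0.89), Seipin for WASp (0.87), alc for m (0.90), Scp1 for cyr (0.91) and didum for mwh (0.85). The likeness was taken over 12 libraries and was not tested.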

How the data were processed

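The authors deposited 1 table of whole-number counts per gene and library, with a score of -1, 0 or 1 per gene that records their own call against control. Per the submitters' processing notes, FastQC 0.11.5, STAR 2.5.2b, HTSeq 0.6.0 and edgeR were used with the build dm6; strand setting and annotation are not given in the sources used here. Per the labels, libraries were made with Ovation SoLo and read as single reads of 100 nt. A second header names 12 further columns without values, which were not used.

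The count table was analysed in R 4.3.3 with edgeR 4.0.16. filterByExpr with a minimum count of 10 kept 8296 genes, libraries were scaled to their totals, and 1 quasi-likelihood model with the genotype as factor was fitted to all 12 libraries and tested two-sided in 6 contrasts, with Benjamini-Hochberg adjustment over all genes tested. A gene was called at an adjusted p under 0.05. Intervals are at 95%, and the SE comes from the F statistic. CPM are counts per 1000000 counts of a library, and CPM per kb uses the union of exons of an annotation on dm6. Log2 CPM for correlations has a prior count of 2. The fit was tested on simulated counts.

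Genotypes were taken from the titles and library numbers from the descriptions, which for svb RNAi differ from the numbers in the titles. Deviations from the genotype means correlated above 0.1 between same-numbered libraries of different genotypes in 18 of 18 pairs (0.115 to 0.424, mean 0.25). Same-numbered libraries were thus alike beyond their genotype, and the fit without a block leaves this likeness out. Whether it comes from a shared day, from depth or from cell content was not tested. With the title numbers 9 of 18 pairs were above 0.1, and pairs with an svb RNAi-labelled library ran from -0.349 to 0.0069. The remaining pairs are the same in both numberings.

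Alternatives were TMM scaling, DESeq2 1.42.0, no count filter, only the genotypes compared, the number of the description or of the title as a block, and leaving out each library. The block together with TMM was added after seeing the data. The members, gene lists and marker lists were chosen with earlier results of these data known. Marker lists are given as sums and counts, and some single markers are also named with their own levels, outside any rule. Other genes outside the set are named when they had the highest Pearson r with a member (4 for ovo, 1 for each other gene). They are also named when a gene of the lists of Svb processing, epidermal targets, actin apparatus and ZP proteins was called against control. One gene of those 4 lists that was called is not reported here.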

Additional observations from a re-analysis of the deposited data

How the results depend on the processing

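Of 908 member values recomputed, 855 kept direction and side of the threshold, 46 changed sign and 7 passed it newly; all 46 were values that were not called. The call of ovo in SvbACT and SvbREP against control, and of svb RNAi against either, held in 19 of 19 alternatives. With the library number of the description as a block the log2 fold change of ovo in svb RNAi against control was 1.14 and called, and 2 of 8 genes were called there, 2 in SvbACT against control and 2 in svb RNAi against SvbACT; with only the genotypes compared 1 was called in svb RNAi against control. The block changed no other member's call. With all 12 libraries kept, these values changed sign. WASp in svb RNAi against control became 0.0115 with the title number as a block. In svb RNAi against SvbACT, WASp was -0.11 with TMM, -0.12 with DESeq2 and -0.11 with the block and TMM, and cyr -0.0673, -0.0777 and -0.0916. In svb RNAi against SvbREP, Ubr3 was -0.15, -0.15 and -0.14, and f was -0.0562 with the block and TMM. The cause was not tested.

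Over all genes the counts called moved more. With the block they were 1965 (svb RNAi against control), 309 (SvbACT), 269 (SvbREP), 25 (SvbACT against SvbREP), 492 (svb RNAi against SvbACT) and 470 (svb RNAi against SvbREP). With the block and TMM they were 319, 295, 32, 498 and 470 in the last 5 of these. DESeq2 gave 327, 275, 41, 443 and 437 there. The title number as a block gave 61 (SvbACT) and 40 (SvbREP), and only the genotypes compared gave 44 (SvbREP), 87 and 67 (svb RNAi against SvbACT and SvbREP).

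Leaving out 1 library gave 380 to 1436 genes called in svb RNAi against control, lowest without control library 1. It gave 20 to 159 in SvbACT and 19 to 106 in SvbREP, both lowest without control library 2, and 0 to 10 in SvbACT against SvbREP, lowest without SvbACT library 3. It gave 53 to 197 in svb RNAi against SvbACT (lowest without SvbACT library 1) and 66 to 224 in svb RNAi against SvbREP (lowest without SvbREP library 3). Members called ran from 0 to 1 in svb RNAi against control and from 1 to 2 in svb RNAi against SvbACT; mwh was gained without SvbACT library 3.

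Log2 fold changes that changed sign when 1 library was left out had these ranges. In svb RNAi against control, f was -1.28 to 0.21, WASp -0.35 to 0.32 and cyr -0.53 to 0.11. In SvbACT against control, Ubr3 was -0.15 to 0.01, WASp -0.39 to 0.27, m -0.83 to 0.25 and mwh -0.85 to 0.17. In SvbREP against control, WASp was -0.13 to 0.80 and m -0.37 to 1.11. In SvbACT against SvbREP, f was -0.64 to 0.30, sn -0.54 to 0.42 and m -1.38 to 0.0531. In svb RNAi against SvbACT, f was -0.66 to 0.99, WASp -0.11 to 0.23 and cyr -0.34 to 0.30. In svb RNAi against SvbREP, Ubr3 was -0.0608 to 0.0818, f -0.72 to 0.78, WASp -0.80 to 0.0196 and cyr -0.14 to 0.50. With only the genotypes compared m failed the count filter in 4 comparisons and gave no value. Counts under 100 in every library limit f, sn, m and cyr to changes larger than their intervals. The median count of mwh was 48.5 (27 to 174 per library), and ovo had 5 to 78 counts in control and svb RNAi-labelled libraries. Low counts therefore bear on those comparisons too.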
